A study of Mus musculus with 14 samples.

Results

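The enzymes of glycolysis, of pyruvate use and of the tricarboxylic acid (TCA) cycle were followed through the differentiation of mouse embryonic stem cells (ESCs) toward extraembryonic endoderm (XEN) cells, stem cells of a lineage of the yolk sac. The rule picks the members by name, from a list of enzymes. All of them were found, 43 of the 23174 rows of the deposited expression table, with Pkm and Pkm2 counted as 1 gene. They comprised 16 genes of glycolysis, 2 of lactate dehydrogenase, 3 of the pyruvate dehydrogenase complex, 4 pyruvate dehydrogenase kinases and 18 genes listed for the TCA cycle, of which Aco1, Idh1 and Mdh1 encode cytosolic enzymes. The label held against the data: each member had a value above 0 in each of the 14 libraries, and the hexokinase gene Hk2 and the lactate dehydrogenase gene Ldha, named as its markers, reached at least 7.46 and 207 FPKM (fragments scaled by transcript length and by the size of the library).

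Polyadenylated RNA was sequenced from 4 feeder-free ESC lines of 129S1/SVImJ background: the wild type WT3, the Zfp281 knockouts KO3.34 and KO2.6, and Rescue3.34, which is KO3.34 with Zfp281 put back. Zfp281 is a zinc finger transcription factor, and the series title names it a barrier to this differentiation. ESCs were grown in serum with leukemia inhibitory factor. The stage cXENp1 (passage 1) was reached in XEN medium after 48 hours of all-trans retinoic acid at 0.01 µM with activin A at 10 ng/mL, and cXENp3 (passage 3) after a further passage on iMEF feeders and a return to gelatin. There was 1 library for each line and stage, and the established lines XENB1 and XEN5, kept without feeders in conditioned XEN medium, gave 1 each. The knockout called KO2.6 after its titles carries another number in its cell line field. WT3 and Rescue3.34 are called Zfp281-present here. XENB1 and XEN5 are not knockouts of Zfp281 either, but are called XEN lines. Libraries of different lines stand in for replicates, and Rescue3.34 comes from KO3.34, so the lines are not all independent. A p-value measures the spread between these lines, except for cXENp1 against ESC. There each line is given its own level, so the p-value measures how the changes within lines differ. In the knockout comparisons the spread is pooled over the stages, with the libraries of a line taken as independent.

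Glycolysis turns glucose into pyruvate in the cytosol and yields a little ATP without oxygen. Lactate dehydrogenase reduces pyruvate to lactate, whereas the pyruvate dehydrogenase complex carries it into the mitochondrial TCA cycle as acetyl-CoA, and the pyruvate dehydrogenase kinases switch that complex off by phosphorylation. Mouse ESCs are known to run glycolysis and respiration side by side, and the balance shifts as they leave the pluripotent state.

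Across the series, the deposited values of a library summed to between 424406 and 718138 FPKM (424406 to 520485 at cXENp1 and 515475 to 640798 at cXENp3), and read counts were not given, so depth is unknown. Zfp281 was at 25.1 to 38.6 FPKM in the libraries of WT3 and Rescue3.34, and at 1.29 to 3.96 in those of KO3.34. For KO2.6 the table lists 0 for its ESC and cXENp1 libraries and 0.559 for cXENp3. XENB1 and XEN5 had 10.6 and 12.5 FPKM of Zfp281. A list of 8 ESC markers summed to 2317 to 3108 FPKM in ESCs and 91.3 to 148 at cXENp1. At cXENp3 its sums were 3019 and 1819 FPKM for the wild type and the rescue and 388 and 97.2 for KO3.34 and KO2.6, and those of a list of 9 XEN markers were 6.67, 18.2, 1552 and 1332 in the same order. The XEN marker sums had been 2.38, 2.19, 8.14 and 50.5 FPKM in ESCs and 51.6, 49.6, 42.2 and 379 at cXENp1, highest in KO2.6 at both stages. A list of 9 feeder fibroblast markers reached 1279.5 FPKM in Rescue3.34 at cXENp3, against 68.2 in WT3, 302 in KO3.34, 360.1 in KO2.6 and 557 to 629 in the XEN lines. In whole cultures, fewer cells of a type and less RNA per cell cannot be told apart. Descriptions of the ESC libraries other than KO2.6 begin with JH and those of the other 11 libraries with XH; what the prefix marks is not stated, and outside KO2.6 it cannot be told apart from the ESC stage.

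Because many members moved together, their promoters were searched for 3 short motifs, and those of the genes that the results turn on are shown. The sequences are the 250 bases upstream of the RefSeq transcript start, from build GRCm38.p6, written in the direction of the gene. Promoters were held for 41 members, 60 in all. Idh3a and Sdhc had no entry. Capitals mark ACGTG on either strand, the core letters of the element bound by hypoxia-inducible factors; where it is part of CACGTG, the E-box letters bound by MYC, both matches overlap. For Ldha (chr7:46845554-46845803, plus strand) the more upstream of its starts is shown, for Pdk1 (chr2:71872974-71873223, plus strand) likewise, and the others are Hk2 (chr6:82774455-82774704, minus strand), Pfkp (chr13:6648772-6649021, minus strand), Pdk3 (chrX:93832151-93832400, minus strand) and Suclg1 (chr6:73248255-73248504, plus strand).
Ldha: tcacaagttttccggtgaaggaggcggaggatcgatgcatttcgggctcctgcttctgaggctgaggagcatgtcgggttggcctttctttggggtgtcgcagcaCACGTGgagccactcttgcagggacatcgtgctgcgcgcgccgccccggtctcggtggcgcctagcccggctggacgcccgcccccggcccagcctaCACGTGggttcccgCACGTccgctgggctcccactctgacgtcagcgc
Hk2: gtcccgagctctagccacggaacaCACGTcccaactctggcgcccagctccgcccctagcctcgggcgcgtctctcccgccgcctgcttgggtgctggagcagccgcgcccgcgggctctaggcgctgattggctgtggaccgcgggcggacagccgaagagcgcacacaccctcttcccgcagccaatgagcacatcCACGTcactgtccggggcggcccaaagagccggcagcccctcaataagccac
Pfkp: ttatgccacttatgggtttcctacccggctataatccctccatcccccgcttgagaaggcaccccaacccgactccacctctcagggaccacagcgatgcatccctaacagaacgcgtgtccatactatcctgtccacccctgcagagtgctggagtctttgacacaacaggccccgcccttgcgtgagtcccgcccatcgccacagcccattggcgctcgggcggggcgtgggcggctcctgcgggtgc
Pdk1: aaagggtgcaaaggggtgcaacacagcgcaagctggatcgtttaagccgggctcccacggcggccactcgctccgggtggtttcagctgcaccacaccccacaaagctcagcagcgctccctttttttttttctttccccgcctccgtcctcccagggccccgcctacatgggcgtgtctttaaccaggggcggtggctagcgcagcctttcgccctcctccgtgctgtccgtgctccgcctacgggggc
Pdk3: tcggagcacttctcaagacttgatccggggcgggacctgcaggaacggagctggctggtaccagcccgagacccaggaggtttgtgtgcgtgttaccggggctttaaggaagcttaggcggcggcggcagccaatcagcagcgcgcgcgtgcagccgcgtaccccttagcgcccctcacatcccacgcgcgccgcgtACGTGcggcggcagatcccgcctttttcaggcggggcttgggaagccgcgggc
Suclg1: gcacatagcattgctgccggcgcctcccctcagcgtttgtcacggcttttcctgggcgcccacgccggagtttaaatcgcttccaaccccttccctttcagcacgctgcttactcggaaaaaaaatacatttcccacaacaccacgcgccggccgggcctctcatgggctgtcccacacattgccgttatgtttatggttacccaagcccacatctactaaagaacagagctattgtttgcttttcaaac
The Ldha promoter shown held 5 matches, counting overlaps, Hk2 held 2 and Pdk3 held 1, while these letters were not in the windows of Pfkp, Pdk1 and Suclg1. The window of the other Ldha start held no match. Of the 60 promoters, 21 (35%) held ACGTG, against 16.6% of the 32851 promoters of that length in the table. CACGTG was in 10% against 6.02%, and the G-rich string GGGGAGGGG, searched because Zfp281 is known to bind G-rich DNA, in 8.33% against 5.75%. Counted by gene, 14 of 41 members (34.1%) held ACGTG, against 18.5% of 27025 genes. For CACGTG the shares by gene were 9.76% against 6.86%, and for GGGGAGGGG 12.2% against 6.55%. These are descriptions of the letters, and several members, such as Ogdh, have more than 1 start, whose windows can overlap and repeat a match.

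In each line the summed level of glycolysis was lower at cXENp1 than in ESCs, while its level at cXENp3 differed between lines, and the sums of the TCA cycle list lay closer together. With the lines in the order WT3, Rescue3.34, KO3.34, KO2.6, the 16 glycolytic genes summed to 13985, 14133, 11995 and 8172 FPKM in ESCs. At cXENp1 they summed to 3679, 4513, 5529 and 6208, all below each ESC library. At cXENp3 the sums were 15848 and 8760.1 for the Zfp281-present lines and 6908 and 4400.2 for the knockouts; XENB1 and XEN5 had 5619 and 6953. As a share of all FPKM in a library, glycolysis took 1.97% to 1.99% in the Zfp281-present ESCs, 1.67% in KO3.34 ESCs, 1.205% in KO2.6 ESCs, 0.867% to 1.19% at cXENp1, 2.47% in WT3 and 1.65% in Rescue3.34 at cXENp3, 1.23% and 0.854% in the knockouts at that stage, and 0.926% and 1.18% in XENB1 and XEN5. For KO2.6 that share was nearly the same in ESCs (1.205%) and at cXENp1 (1.193%), and its lower sum at cXENp1 went with a lower sum over all genes. The TCA cycle list summed to between 1210.1 and 2149 FPKM, 0.235% to 0.316% of a library.

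**Figure D1:**
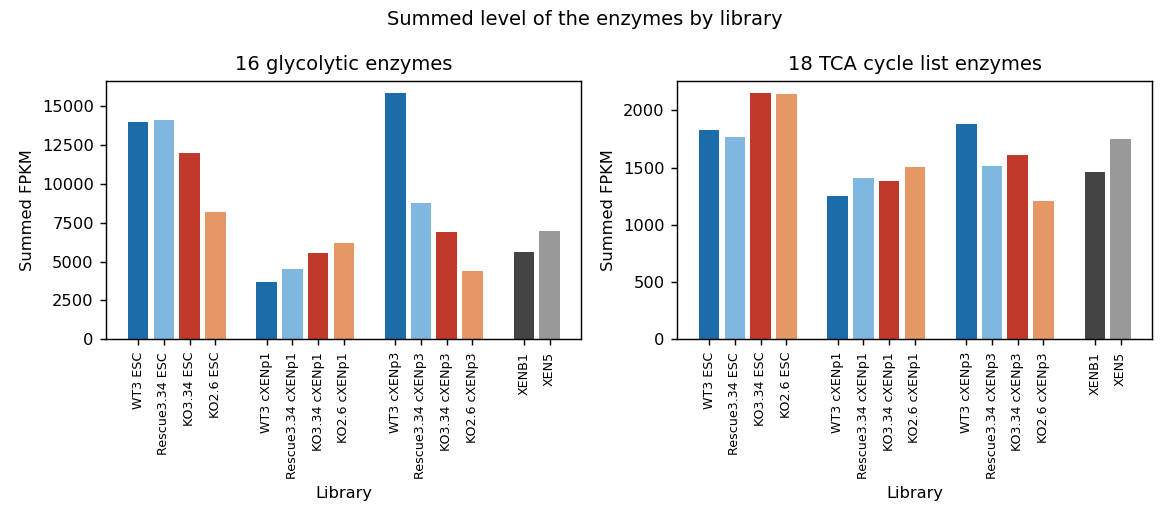
Summed FPKM (vertical axis, from 0) of the 16 glycolytic genes and of the 18 genes of the TCA cycle list in each of the 14 libraries; a bar is 1 library, coloured by line. The glycolytic sum is lowest in WT3 at cXENp1 (3679 FPKM) and highest in WT3 at cXENp3 (15848), whereas the TCA sums lie between 1210.1 and 2149.

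The genes differed widely in level. Gapdh was the most abundant, with a mean of 3412 FPKM over the 14 libraries, and it alone made up 33.6% to 51.6% of the glycolytic sum. Pkm (1183), Aldoa (1131), Eno1 (1113) and Ldha (860.3) followed. Many copies of processed pseudogenes exist for Gapdh, Pgk1, Tpi1, Eno1, Aldoa, Pgam1, Pkm and Ldha, so that their values are uncertain where reads could be shared. In the values below, the 4 numbers of a stage are given in the order WT3, Rescue3.34, KO3.34, KO2.6. Differences are on the log2(FPKM + 1) scale with their standard error (SE) from limma, a linear model fitted to all genes. A gene is called where its p, adjusted by Benjamini-Hochberg over all genes tested in the comparison, is under 0.05.

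**Figure D2:**
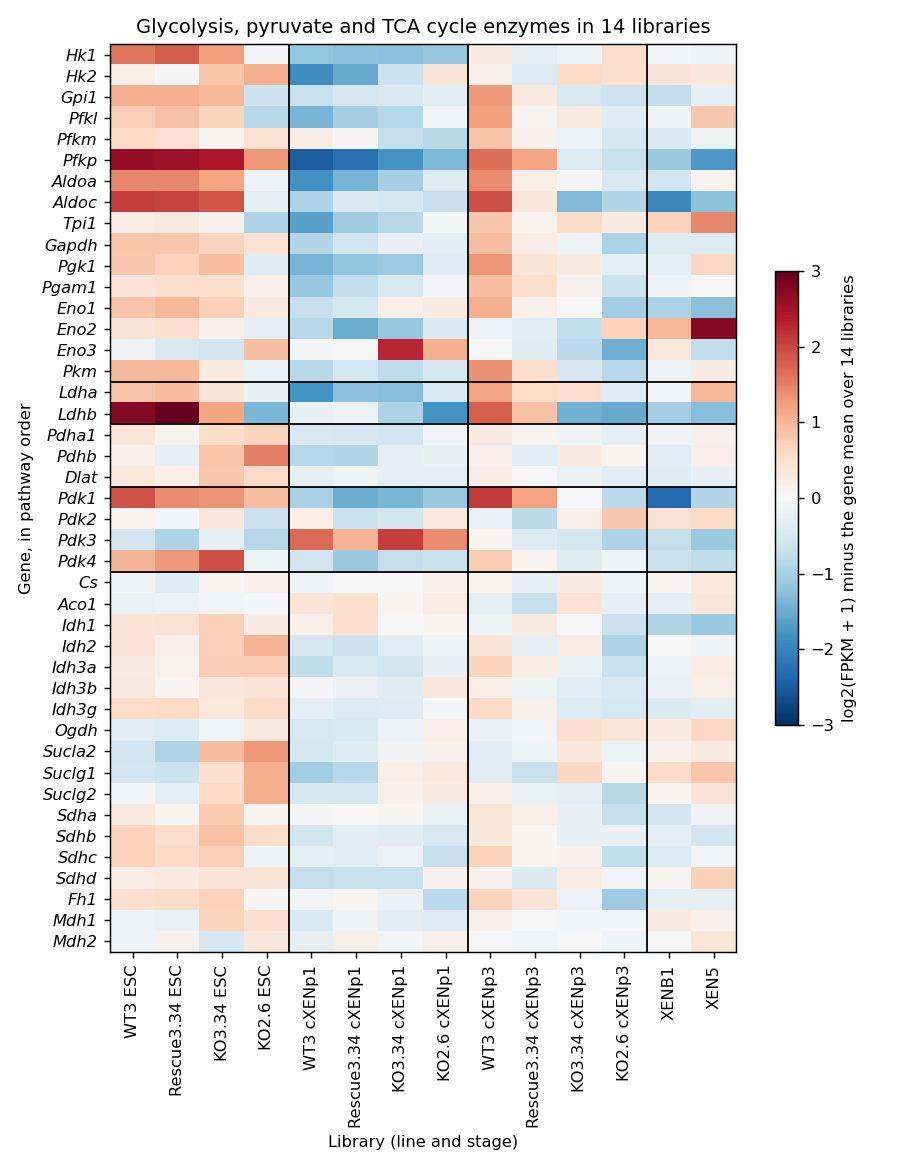
Level of each member (rows, in pathway order) in each library (columns, by stage and line), as log2(FPKM + 1) minus the gene's mean over the 14 libraries; red is above the mean and blue below, on a scale cut at 3 on either side. Most glycolytic rows are red in the ESCs of WT3, Rescue3.34 and KO3.34 and in WT3 at cXENp3, and blue at cXENp1, while Pdk3 is red at cXENp1.

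Hexokinases phosphorylate glucose as it enters the cell. Hk1 (XLOC_001985, chromosome 10, 61731603 to 61842656), the widespread form, had 73.9, 86.0, 57.7 and 22.2 FPKM in ESCs, 10.0, 9.45, 9.28 and 10.0 at cXENp1, 28.8, 19.2, 21.2 and 34.3 at cXENp3, and 22.6 and 21.95 in XENB1 and XEN5. Its 4 values at cXENp1 lay together, below every other library. Hk2 (XLOC_017204, chromosome 6, 82675021 to 82724448), the form known to be induced in growing cells, had 34.5, 29.1, 53.7 and 64.4 FPKM in ESCs, 7.46, 9.77, 18.8 and 39.2 at cXENp1, 32.7, 22.1, 44.8 and 42.9 at cXENp3, and 39.3 and 37.7 in XENB1 and XEN5. At each stage both knockouts were above both Zfp281-present lines, and in each line cXENp1 was below ESC, although the stages overlapped because KO2.6 stayed high. From ESC to cXENp1, Hk1 changed by -2.35 (SE 0.37, adjusted p 0.0025) and Hk2 by -1.43 (SE 0.26, adjusted p 0.00501). Between knockout and Zfp281-present lines the difference in Hk2 was 0.87 (SE 0.32, adjusted p 0.163) in ESCs, 1.56 (SE 0.32, adjusted p 0.0816) at cXENp1 and 0.68 (SE 0.32, adjusted p 0.113) at cXENp3, none of which passed. Hk2 made up 31.8% and 25.3% of hexokinase FPKM in the ESCs of WT3 and Rescue3.34, 48.2% and 74.4% in KO3.34 and KO2.6, and 63.5% and 63.2% in XENB1 and XEN5.

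Gpi1, which encodes glucose-6-phosphate isomerase, had 429, 429.8, 399.7 and 127 FPKM in ESCs, 124, 137, 146 and 159 at cXENp1, 485, 246, 143 and 130.02 at cXENp3, and 119 and 166 in XENB1 and XEN5. KO2.6 ESCs stood apart from the other ESCs and lay among the cXENp1 libraries, and at cXENp3 both knockouts were below both Zfp281-present lines. That difference at cXENp3 was -1.33 (SE 0.46, adjusted p 0.0403).

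Phosphofructokinase commits sugar to glycolysis and exists as liver, muscle and platelet forms. The platelet form Pfkp (XLOC_005263, chromosome 13, 6547403 to 6647970) had 99.7, 93.9, 87.2 and 39.5 FPKM in ESCs, 1.97, 2.46, 3.73 and 5.48 at cXENp1, 51.3, 36.1, 11.3 and 9.30 at cXENp3, and 6.56 and 3.98 in XENB1 and XEN5. Its ESC and cXENp1 ranges were far apart, and at cXENp3 the Zfp281-present lines returned to at least 36.1 FPKM while the knockouts stayed at or under 11.3. Pfkp fell by 4.18 (SE 0.51, adjusted p 0.000796) from ESC to cXENp1. It was lower in XEN lines than in ESCs at -3.64 (SE 0.40, adjusted p 0.000356) and in knockout than in Zfp281-present lines at cXENp3 at -1.96 (SE 0.34, adjusted p 0.00208). The knockout difference itself changed between passages, by -2.75 (SE 0.49, adjusted p 0.0108), having been 0.79 (SE 0.34, adjusted p 0.428) at cXENp1.

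The liver form Pfkl had 156, 174, 149 and 51.0 FPKM in ESCs, 34.9, 46.3, 50.8 and 88.6 at cXENp1, 219, 98.4, 114 and 72.4 at cXENp3, and 86.3 and 164 in XENB1 and XEN5. KO2.6 had the lowest value among ESCs and the highest at cXENp1, and no comparison called Pfkl. The muscle form Pfkm had 28.1, 25.3, 19.5 and 25.4 FPKM in ESCs, 21.5, 18.8, 10.7 and 9.75 at cXENp1, 34.1, 19.9, 16.2 and 12.4 at cXENp3, and 13.3 and 16.4 in XENB1 and XEN5. Its knockout values were below the Zfp281-present ones at cXENp1 and cXENp3. Called differences in Pfkm were -0.69 (SE 0.23, adjusted p 0.0459) between XEN lines and ESCs, -0.72 (SE 0.22, adjusted p 0.0356) from ESC to cXENp1, and -0.84 (SE 0.27, adjusted p 0.0301) for knockouts at cXENp3. Pfkp made up 32.04% to 35.1% of phosphofructokinase FPKM in ESCs of all 4 lines and 3.38% to 5.72% at cXENp1. At cXENp3 it made up 16.8% and 23.4% in WT3 and Rescue3.34, 8.002% and 9.89% in KO3.34 and KO2.6, and 6.18% and 2.16% in XENB1 and XEN5. Pfkl held the largest of the 3 shares in each of the 14 libraries.

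Aldolase splits the sugar bisphosphate. Aldoa, the main form here, had 2409, 2423, 2034 and 831 FPKM in ESCs, 252, 336, 442 and 692 at cXENp1, 2364, 996, 853 and 638 at cXENp3, and 607 and 960.1 in XENB1 and XEN5. The cXENp1 values were below every ESC value, with KO2.6 highest at cXENp1 and lowest among ESCs. Aldoc had 32.8, 31.97, 28.9 and 5.62 FPKM in ESCs, 3.24, 4.98, 4.58 and 3.99 at cXENp1, 29.8, 9.16, 2.24 and 3.35 at cXENp3, and 1.10 and 2.41 in XENB1 and XEN5. KO2.6 ESCs stood apart from the other ESCs, and at cXENp3 the knockouts were below Rescue3.34 and far below WT3. Between ESC and cXENp1 Aldoa changed by -2.14 (SE 0.49, adjusted p 0.013) and Aldoc by -2.07 (SE 0.57, adjusted p 0.0251). Aldoc was also lower in XEN lines than in ESCs, at -3.02 (SE 0.67, adjusted p 0.0086), and in knockouts at cXENp3, at -2.24 (SE 0.65, adjusted p 0.0208), where Aldoa differed at -1.06 (SE 0.48, adjusted p 0.105) and was not called.

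Triose phosphate isomerase, Tpi1, converts the product of aldolase that cannot go on directly, and had 299.6, 313, 280.1 and 135 FPKM in ESCs, 82.8, 122, 143 and 248 at cXENp1, 456, 277, 385 and 303 at cXENp3, and 417 and 699.9 in XENB1 and XEN5. XEN5 was the highest of the 14 libraries and WT3 at cXENp1 the lowest. In XEN lines Tpi1 was higher than in ESCs, by 1.14 (SE 0.38, adjusted p 0.0434). Gapdh, which makes the step that reduces NAD, had 5573, 5536, 4907 and 4218 FPKM in ESCs, 1683, 2105, 2609 and 2509 at cXENp1, 5889.6, 3607, 2875 and 1605 at cXENp3, and 2323 and 2335 in XENB1 and XEN5. Gapdh was at 4218 FPKM or more in the 4 ESC libraries and WT3 at cXENp3 and at 3607 or less elsewhere. It was lower in XEN lines than in ESCs at -1.11 (SE 0.21, adjusted p 0.00414), at cXENp1 than in ESCs at -1.20 (SE 0.37, adjusted p 0.0373), and in knockouts at cXENp3 at -1.10 (SE 0.35, adjusted p 0.0294).

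Pgk1, whose enzyme makes ATP directly from sugar phosphate, had 792, 732, 847 and 352 FPKM in ESCs, 171, 200.2, 212 and 348 at cXENp1, 1133, 598, 537 and 372 at cXENp3, and 379 and 703 in XENB1 and XEN5. All cXENp1 values were below all ESC values, with KO2.6 ESCs only just above KO2.6 at cXENp1. The change from ESC to cXENp1 was -1.52 (SE 0.39, adjusted p 0.0193). Pgam1, phosphoglycerate mutase, had 235, 253, 247 and 203 FPKM in ESCs, 79.0, 106, 127 and 166 at cXENp1, 337, 255, 191 and 112 at cXENp3, and 162 and 176 in XENB1 and XEN5. At cXENp1 both knockouts were above, and at cXENp3 both were below, the Zfp281-present lines. At cXENp3 the knockout difference in Pgam1 was -1.001 (SE 0.29, adjusted p 0.0192), and its change from cXENp1 was -1.66 (SE 0.40, adjusted p 0.0304).

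Enolases make phosphoenolpyruvate. Eno1, the general form, had 1763, 1954, 1608 and 1178 FPKM in ESCs, 609, 689, 1093 and 1168 at cXENp1, 2068, 1085, 969.5 and 475 at cXENp3, and 509 and 410.2 in XENB1 and XEN5. The knockouts were above the Zfp281-present lines at cXENp1 and below them at cXENp3, and both XEN lines were below every ESC library. Eno1 was lower in XEN lines than in ESCs at -1.80 (SE 0.25, adjusted p 0.000982) and in knockouts at cXENp3 at -1.14 (SE 0.38, adjusted p 0.0365), and the knockout difference changed between the passages by -1.94 (SE 0.54, adjusted p 0.0469), not called with line as a block (adjusted p 0.0501). From ESC to cXENp1 its value was -0.90 (SE 0.41, adjusted p 0.127), not called.

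Eno2, the neuronal form, was low, with 4.46, 4.84, 3.59 and 2.48 FPKM in ESCs, 1.35, 0.506, 0.911 and 2.098 at cXENp1, 2.75, 2.31, 1.53 and 5.82 at cXENp3, and 7.38 and 26.9 in XENB1 and XEN5. XEN5 was the highest library and XENB1 the next. Eno2 was higher in XEN lines than in ESCs, at 1.69 (SE 0.48, adjusted p 0.0236), and lower at cXENp1 than in ESCs, at -1.15 (SE 0.32, adjusted p 0.0272). The muscle form Eno3 had 8.04, 6.37, 5.96 and 17.9 FPKM in ESCs, 8.75, 9.33, 48.7 and 20.4 at cXENp1, 9.30, 6.89, 4.91 and 2.66 at cXENp3, and 11.6 and 5.10 in XENB1 and XEN5. KO3.34 at cXENp1 was the highest library, and KO2.6 at cXENp3 the lowest. The knockout difference in Eno3 changed by -2.65 (SE 0.70, adjusted p 0.0396) between the passages, from 1.70 (SE 0.50, adjusted p 0.202) at cXENp1 to -0.95 (SE 0.50, adjusted p 0.148) at cXENp3, neither of which was called alone. With line as a block the change in Eno3 was not called either (adjusted p 0.0576). Neurons or muscle as a source of Eno2 or Eno3 was not tested. A list of 6 markers of those cells summed to 8.12 FPKM in XEN5 and 14.5 in XENB1, and to 33.7 to 126 in the other 12 libraries. Tubb3 alone gave 118 of the 126 FPKM, in Rescue3.34 at cXENp3. The muscle marker Acta1 had 15.5, 14.9, 30.6 and 37.3 FPKM at cXENp1, higher in both knockouts, as Eno3 was. Ckm and Myh3 were at most 0.26 FPKM at that stage. Eno1 made up at least 92.8% of enolase FPKM in every library.

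Pyruvate kinase closes glycolysis, and Pkm (XLOC_021097, chromosome 9, 59504175 to 59527182) covers both of its splice forms, which the table does not separate. Pkm had 2046, 2042, 1267 and 899.6 FPKM in ESCs, 589, 717, 609 and 738 at cXENp1, 2707, 1482, 738 and 582 at cXENp3, and 915 and 1225 in XENB1 and XEN5. At cXENp3 both knockouts were below both Zfp281-present lines, and in ESCs they were too. The difference was -1.61 (SE 0.31, adjusted p 0.0035) at cXENp3, where it was called, and -0.94 (SE 0.31, adjusted p 0.133) in ESCs, where it was not. Pkm fell by 1.16 (SE 0.36, adjusted p 0.0396) from ESC to cXENp1, and the knockout difference changed between passages by -1.66 (SE 0.45, adjusted p 0.0417), not called with line as a block (adjusted p 0.0591).

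Lactate dehydrogenase is built from A and B subunits; the A form is known to favour making lactate and the B form using it. Ldha (XLOC_018026, chromosome 7, 54101174 to 54110997) had 1317, 1387, 965 and 619 FPKM in ESCs, 207, 301, 299.5 and 513 at cXENp1, 1669, 1051, 1017 and 550.0 at cXENp3, and 706 and 1443 in XENB1 and XEN5. Each line was lower at cXENp1 than in ESCs, and at cXENp3 KO3.34 reached nearly the level of Rescue3.34 while KO2.6 was lowest. Ldha fell by 1.70 (SE 0.40, adjusted p 0.0144) from ESC to cXENp1 and was not called between knockout and Zfp281-present lines at cXENp3, at -0.82 (SE 0.40, adjusted p 0.121), or between XEN lines and ESCs, at -0.02 (SE 0.40, adjusted p 0.975), XEN5 having 1443 FPKM and XENB1 706. Ldhb (XLOC_017527, chromosome 6, 142438769 to 142456463) had 887, 1122, 295 and 49.5 FPKM in ESCs, 111, 115, 68.1 and 36.8 at cXENp1, 455, 241, 47.0 and 45.1 at cXENp3, and 63.8 and 52.7 in XENB1 and XEN5. At all 3 stages the knockouts were below both Zfp281-present lines. The knockout difference in Ldhb was -3.03 (SE 0.66, adjusted p 0.0505) in ESCs, just over the threshold, -1.16 (SE 0.66, adjusted p 0.573) at cXENp1, and -2.82 (SE 0.66, adjusted p 0.00813) at cXENp3, where it was called. From ESC to cXENp1 Ldhb fell by 2.19 (SE 0.49, adjusted p 0.0111).

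As a share of lactate dehydrogenase FPKM, Ldhb made up 40.2% and 44.7% in ESCs of WT3 and Rescue3.34, but 23.4% in KO3.34 and just 7.41% in KO2.6. The share at cXENp3 was 21.4% and 18.7% in WT3 and Rescue3.34 and 4.41% and 7.59% in KO3.34 and KO2.6. XENB1 and XEN5 had 8.30% and 3.52%.

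The pyruvate dehydrogenase complex makes acetyl-CoA from pyruvate; Pdha1 and Pdhb encode the subunits of the first of its enzymes and Dlat the second. Pdha1 had 109, 91.6, 124 and 137 FPKM in ESCs, 60.6, 59.6, 56.6 and 81.0 at cXENp1, 103, 91.4, 78.6 and 70.2 at cXENp3, and 78.7 and 94.2 in XENB1 and XEN5. Pdhb had 115, 87.8, 188 and 299 FPKM in ESCs, 57.3, 56.7, 86.1 and 89.4 at cXENp1, 117, 82.7, 125 and 109 at cXENp3, and 84.3 and 120.4 in XENB1 and XEN5. Dlat had 31.4, 27.7, 44.4 and 37.7 FPKM in ESCs, 21.3, 22.3, 20.2 and 19.95 at cXENp1, 29.1, 24.8, 21.5 and 19.4 at cXENp3, and 19.1 and 21.2 in XENB1 and XEN5. In each line all 3 were lower at cXENp1 than in ESCs, and in ESCs Pdhb was higher in both knockouts than in both Zfp281-present lines. The changes from ESC to cXENp1 were -0.83 (SE 0.20, adjusted p 0.0159) for Pdha1, -1.11 (SE 0.24, adjusted p 0.0101) for Pdhb and -0.71 (SE 0.20, adjusted p 0.0288) for Dlat. Pdhb was higher in knockout ESCs at 1.23 (SE 0.26, adjusted p 0.0468), and Dlat was lower in XEN lines than in ESCs at -0.76 (SE 0.24, adjusted p 0.0376).

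The kinases that switch this complex off exchanged their shares between ESC and cXENp1. Pdk1 (XLOC_010900, chromosome 2, 71711329 to 71741915), known as a target of hypoxia-inducible factors, had 82.4, 58.4, 55.7 and 41.6 FPKM in ESCs, 10.4, 6.97, 7.66 and 9.22 at cXENp1, 94.9, 50.8, 21.4 and 11.9 at cXENp3, and 3.43 and 11.1 in XENB1 and XEN5. Values at cXENp1 were at most 10.4 FPKM and those in ESCs at least 41.6, and at cXENp3 the Zfp281-present lines had 50.8 or more while both knockouts had 21.4 or less. Pdk3 (XLOC_022887, chromosome X, 91009955 to 91077434) had 19.1, 14.4, 23.02 and 15.2 FPKM in ESCs, 94.2, 59.8, 122 and 77.0 at cXENp1, 29.8, 21.4, 19.4 and 14.4 at cXENp3, and 16.9 and 12.6 in XENB1 and XEN5. It was at 59.8 FPKM or more at cXENp1 and at most 29.8 in the other 10 libraries. From ESC to cXENp1 Pdk1 changed by -2.63 (SE 0.39, adjusted p 0.00199) and Pdk3 by 2.21 (SE 0.21, adjusted p 0.00032). Pdk1 was lower in XEN lines than in ESCs at -3.01 (SE 0.42, adjusted p 0.0011), and in knockouts at cXENp3 at -2.05 (SE 0.36, adjusted p 0.00219), a difference that was -0.02 (SE 0.36, adjusted p 0.998) at cXENp1 and changed by -2.03 (SE 0.52, adjusted p 0.0342). Both knockouts were below both Zfp281-present lines in Pdk3 at cXENp3, and the difference, -0.57 (SE 0.33, adjusted p 0.192), was not called.

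Pdk2 was low, with 6.30, 5.65, 7.70 and 3.303 FPKM in ESCs, 6.77, 3.43, 3.68 and 7.42 at cXENp1, 4.98, 3.03, 6.78 and 10.97 at cXENp3, and 8.51 and 9.30 in XENB1 and XEN5, and was called in no comparison. Pdk4, known to rise on fasting, was lower still, with 4.49, 5.70, 9.38 and 1.43 FPKM in ESCs, 0.782, 0.259, 0.636 and 0.706 at cXENp1, 3.58, 1.90, 1.11 and 1.48 at cXENp3, and 0.704 and 0.604 in XENB1 and XEN5. Its cXENp1 values were at most 0.782 FPKM, and KO2.6 was the lowest of the ESCs. Pdk4 fell by 1.80 (SE 0.39, adjusted p 0.00982) from ESC to cXENp1 and was lower in XEN lines than in ESCs at -1.74 (SE 0.52, adjusted p 0.0294); at such low levels the added pseudocount understates the change.

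As a share of the 4 kinases, Pdk1 made up 58.1% to 73.4% in ESCs and 5.72% to 9.89% at cXENp1, where Pdk3 made up 81.6% to 91.1%. At cXENp3 Pdk1 made up 71.2% and 65.9% in WT3 and Rescue3.34 and 44.0% and 30.7% in KO3.34 and KO2.6. In XENB1 and XEN5 it made up 11.6% and 32.9%, with Pdk2 at 28.8% and 27.7%. Pdk2 was at 28.3% in KO2.6 and 13.9% in KO3.34 at cXENp3, and at 3.74% and 3.93% in the Zfp281-present lines.

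**Figure D3:**
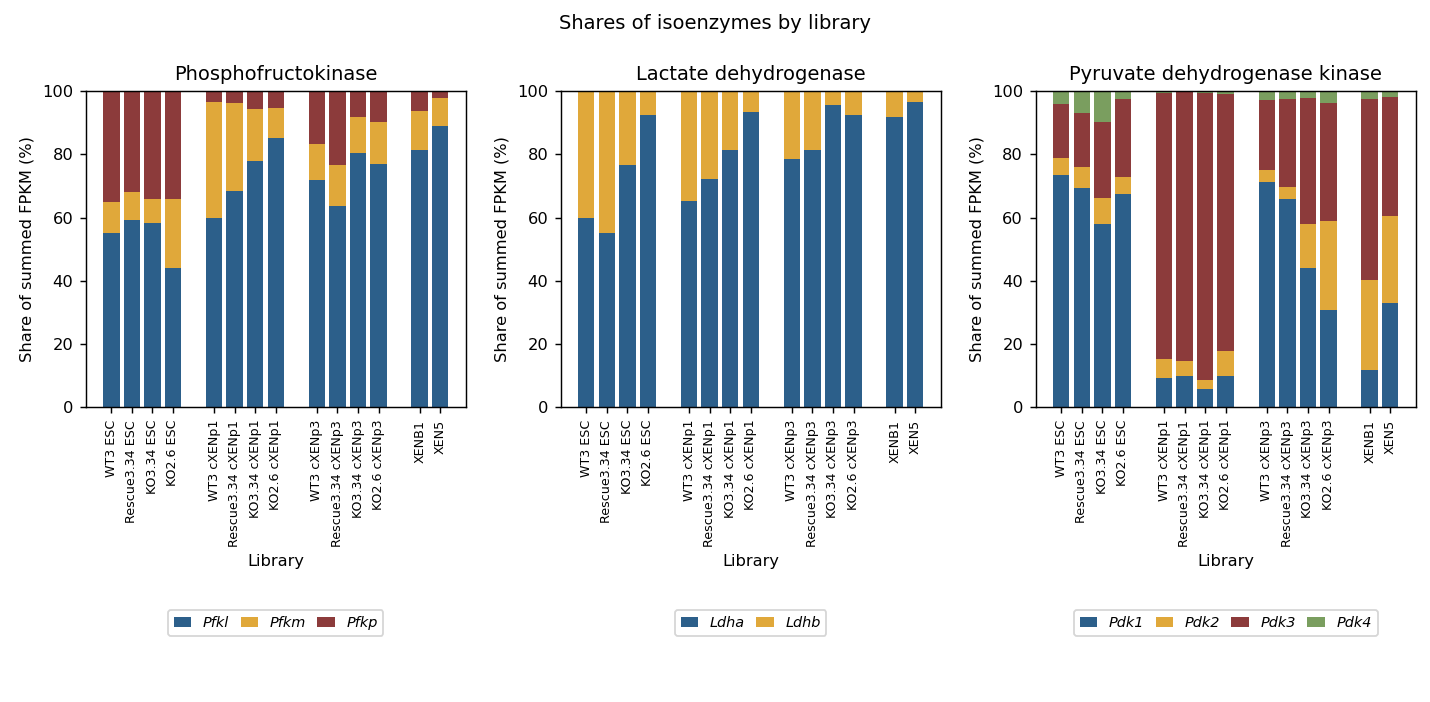
Share (percent, vertical axis) of each isoenzyme in the summed FPKM of its family for phosphofructokinase, lactate dehydrogenase and pyruvate dehydrogenase kinase; a bar is 1 library. The Pdk1 share goes from 58.1% to 73.4% in ESCs to 5.72% to 9.89% at cXENp1, where Pdk3 fills 81.6% to 91.1%, and the Ldhb share is at most 7.59% in KO2.6 at each stage and at most 8.30% in the XEN lines.

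**Figure D4:**
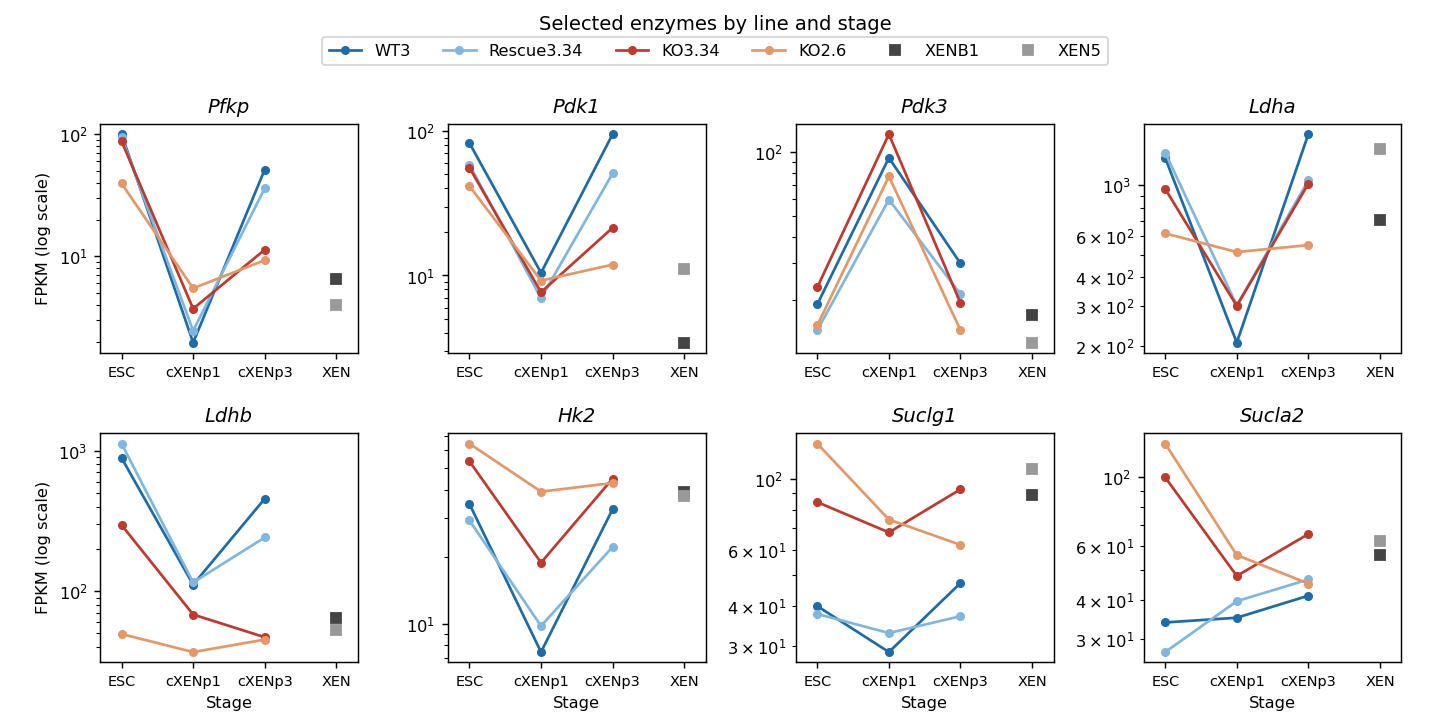
FPKM (log scale) of 8 members against stage; lines join the libraries of 1 cell line, and squares are the XEN lines. Pfkp and Pdk1 drop at cXENp1 in all lines and return at cXENp3 in WT3 and Rescue3.34 more than in the knockouts, Pdk3 peaks at cXENp1, and Suclg1 is higher in the knockouts at each stage.

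In the TCA cycle, citrate synthase (Cs), which opens the cycle, and the cytosolic aconitase Aco1 were called in none of the 7 comparisons. Cs ranged from 84.0 to 137 FPKM and Aco1 from 13.997 to 32.7 over the 14 libraries, and both were called higher at cXENp1 once each library was rescaled to the same sum. Isocitrate dehydrogenases release carbon dioxide; Idh1 works in the cytosol with NADP, Idh2 in mitochondria with NADP, and Idh3a, Idh3b and Idh3g build the NAD-dependent enzyme of the cycle. Idh1 had 79.6, 82.3, 98.5 and 70.4 FPKM in ESCs, 66.4, 84.2, 58.7 and 61.8 at cXENp1, 54.3, 71.7, 58.6 and 37.96 at cXENp3, and 31.1 and 27.1 in XENB1 and XEN5. The XEN lines were the lowest libraries, and Idh1 was lower there than in ESCs at -1.47 (SE 0.21, adjusted p 0.00109). Idh2 had 125, 106, 156 and 192 FPKM in ESCs, 66.7, 60.1, 75.1 and 86.9 at cXENp1, 125, 77.9, 112 and 49.4 at cXENp3, and 94.9 and 87.2 in XENB1 and XEN5. Each cXENp1 value was below each ESC value, and Idh2 fell by 0.97 (SE 0.29, adjusted p 0.0342).

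Among the subunits of the NAD-dependent enzyme, Idh3a had 55.6, 50.1, 80.0 and 79.6 FPKM in ESCs, 27.1, 33.8, 31.6 and 40.2 at cXENp1, 75.6, 54.3, 40.8 and 29.2 at cXENp3, and 41.2 and 54.9 in XENB1 and XEN5. Idh3g had 107, 111, 91.9 and 109 FPKM in ESCs, 60.2, 55.1, 55.4 and 70.6 at cXENp1, 112, 79.7, 54.8 and 52.6 at cXENp3, and 54.3 and 59.1 in XENB1 and XEN5. Idh3b had 93.5, 81.0, 98.1 and 101 FPKM in ESCs, 73.8, 67.2, 59.5 and 97.6 at cXENp1, 89.6, 69.3, 61.4 and 55.8 at cXENp3, and 67.8 and 89.1 in XENB1 and XEN5. For Idh3a and Idh3g the ESC and cXENp1 ranges did not overlap, and at cXENp3 both knockouts were below both Zfp281-present lines. Idh3a changed by -0.96 (SE 0.31, adjusted p 0.0434) between ESC and cXENp1 and Idh3g by -0.79 (SE 0.22, adjusted p 0.0259), and at cXENp3 the knockouts were lower at -0.88 (SE 0.24, adjusted p 0.0152) and -0.81 (SE 0.21, adjusted p 0.0127). Idh3g was also lower in XEN lines than in ESCs, at -0.87 (SE 0.18, adjusted p 0.00662). Idh3b was called in no comparison.

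Ogdh, the first enzyme of the oxoglutarate dehydrogenase complex, had 20.5, 19.2, 24.6 and 31.2 FPKM in ESCs, 18.1, 18.4, 22.9 and 29.99 at cXENp1, 22.5, 24.5, 36.2 and 33.4 at cXENp3, and 31.7 and 40.2 in XENB1 and XEN5. At cXENp3 the knockouts were above both Zfp281-present lines, by 0.55 (SE 0.20, adjusted p 0.0488). Succinyl-CoA ligase pairs the alpha subunit Suclg1 with a beta subunit that makes either ATP (Sucla2) or GTP (Suclg2). Suclg1 (XLOC_016603, chromosome 6, 73198499 to 73226901) had 39.95, 37.8, 84.5 and 129 FPKM in ESCs, 28.7, 32.9, 68.0 and 74.6 at cXENp1, 47.2, 37.1, 92.7 and 62.1 at cXENp3, and 89.1 and 108 in XENB1 and XEN5. Both knockouts were above both Zfp281-present lines at each of the 3 stages, and both XEN lines were above every library of the Zfp281-present lines. Its knockout difference was 1.40 (SE 0.26, adjusted p 0.0318) in ESCs, 1.19 (SE 0.26, adjusted p 0.0908) at cXENp1, where it was not called, and 0.84 (SE 0.26, adjusted p 0.0246) at cXENp3.

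Sucla2 (XLOC_006059, chromosome 14, 73952593 to 73995949) had 33.96, 27.2, 100.0 and 128 FPKM in ESCs, 35.2, 39.8, 48.0 and 56.1 at cXENp1, 41.4, 46.7, 65.6 and 45.4 at cXENp3, and 56.2 and 62.4 in XENB1 and XEN5. In ESCs the knockouts had at least 100.0 FPKM and the Zfp281-present lines at most 33.96, whereas at cXENp3 KO2.6 lay between WT3 and Rescue3.34. The knockout difference in Sucla2 was 1.86 (SE 0.23, adjusted p 0.0124) in ESCs and 0.30 (SE 0.23, adjusted p 0.312) at cXENp3. Suclg2 had 34.6, 29.04, 54.5 and 75.7 FPKM in ESCs, 24.5, 24.7, 39.4 and 42.6 at cXENp1, 40.04, 30.8, 29.3 and 19.6 at cXENp3, and 37.999 and 47.1 in XENB1 and XEN5. Knockouts were higher in ESCs and at cXENp1 and lower at cXENp3. In ESCs that difference was 1.00 (SE 0.25, adjusted p 0.0653), not called, and from cXENp1 to cXENp3 the knockout difference changed by -1.24 (SE 0.35, adjusted p 0.047), not called with line as a block (adjusted p 0.0586).

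Succinate dehydrogenase is at once a TCA enzyme and complex II of the respiratory chain. Sdha had 129.6, 111, 182 and 113 FPKM in ESCs, 101, 107, 113 and 91.9 at cXENp1, 136, 120.3, 89.6 and 63.7 at cXENp3, and 72.1 and 95.0 in XENB1 and XEN5. Sdhb had 139, 124, 159.7 and 127 FPKM in ESCs, 58.9, 68.3, 66.8 and 61.5 at cXENp1, 109, 88.9, 73.5 and 73.5 at cXENp3, and 69.9 and 58.9 in XENB1 and XEN5. Sdhc had 254, 235, 259.6 and 142 FPKM in ESCs, 127, 125, 138 and 95.7 at cXENp1, 251, 163, 169.7 and 93.7 at cXENp3, and 117 and 148 in XENB1 and XEN5. In each line all 3 were lower at cXENp1 than in ESCs, with no overlap of the stages for Sdhb and Sdhc. Sdhd had 139, 148, 157 and 156 FPKM in ESCs, 72.7, 74.5, 75.5 and 131 at cXENp1, 132, 88.3, 139.6 and 113 at cXENp3, and 127 and 199 in XENB1 and XEN5. Among the cXENp1 libraries KO2.6 stood apart in Sdhd. The changes from ESC to cXENp1 were -1.09 (SE 0.18, adjusted p 0.00296) for Sdhb, -0.84 (SE 0.19, adjusted p 0.0109) for Sdhc and -0.80 (SE 0.21, adjusted p 0.0214) for Sdhd, and Sdha, at -0.35 (SE 0.22, adjusted p 0.266), was not called there. Sdhb was lower in XEN lines than in ESCs at -1.08 (SE 0.19, adjusted p 0.00344), and Sdha was lower in knockouts at cXENp3 at -0.75 (SE 0.26, adjusted p 0.0394).

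Fumarase, Fh1, had 135, 137, 152 and 98.4 FPKM in ESCs, 88.4, 97.0, 81.7 and 54.5 at cXENp1, 149, 124, 82.8 and 43.4 at cXENp3, and 77.7 and 77.6 in XENB1 and XEN5. In each line it was lower at cXENp1 than in ESCs, and at cXENp3 both knockouts were below both Zfp281-present lines. Fh1 was lower at cXENp1 than in ESCs at -0.71 (SE 0.22, adjusted p 0.0416), in XEN lines than in ESCs at -0.73 (SE 0.22, adjusted p 0.0302), and in knockouts at cXENp3 at -1.17 (SE 0.32, adjusted p 0.017). The malate dehydrogenases Mdh1 (cytosolic) and Mdh2 (mitochondrial) ranged from 57.8 to 125 and from 187 to 344 FPKM and were called in no comparison.

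The change over the treatment with retinoic acid and activin A was taken as cXENp1 against ESC, with line as a block. The 12 libraries of the 3 stages entered the fit, with a cXENp3 term shared by all lines. Differences between lines at cXENp3 therefore add to the spread of the fit. Of the 43 members, 24 were called lower and 1, Pdk3, higher, where 28.5% of all 13191 genes tested were called (13.8% lower and 14.7% higher). The median difference over members was -0.84, against 0.00 over all genes. By class, 10 of 16 glycolytic genes, both lactate dehydrogenase genes, all 3 pyruvate dehydrogenase genes, 2 of 4 kinases and 7 of 18 genes of the TCA list were called lower. Within lines, 38, 35, 39 and 36 members were lower at cXENp1 (lines in the order used above), and 31 were lower in all 4. KO2.6, whose libraries share a prefix, had the smallest median change over members, -0.41, against -0.99 in WT3, -0.86 in Rescue3.34 and -1.04 in KO3.34. That held for glycolysis (-0.27 in KO2.6, -1.36 to -1.82 in the other lines) but not for the TCA list, where the medians were -0.59 in KO2.6, -0.41 in WT3, -0.21 in Rescue3.34 and -0.73 in KO3.34. With the prefix as a term 3.33% of all genes were called, and of the members Pdk3 and Pdhb, while the median over members stayed at -0.85. Quantile normalization left 12 lower and 2 higher. Rescaling each library to the same sum moved the median of all genes to 0.47 and left 11 lower and 4 higher (Pdk3, Cs, Aco1 and Mdh2), and under it 7 of 18 TCA values were below 0, against 15. The count of called members was 13 without WT3, 8 without KO3.34 and 7 without Rescue3.34, where 16.6%, 10% and 9.57% of all genes were called, and the median over members was -0.83, -0.82 and -0.84. Pdk3 was called in all 13 alternatives.

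From cXENp1 to cXENp3, where all 8 libraries have the prefix XH, the lines parted. In WT3 39 of 43 members and in Rescue3.34 36 were higher at cXENp3, with median changes of 0.89 and 0.53, and the 16 glycolytic genes had medians of 2.04 and 1.06. KO3.34 had 33 members higher, with a median of 0.36, and KO2.6 had 16, with a median of -0.21. Of the 43 members, 36 were higher in both Zfp281-present lines and 15 in both knockouts. Tested as an interaction, the knockout difference changed from cXENp1 to cXENp3 in 7 members, all toward lower: Pfkp, Pgam1, Eno1, Eno3, Pkm, Pdk1 and Suclg2. Over all 13191 genes 11.4% were called in this interaction, 4.26% toward lower. The median over members was -0.75, against -0.01 over all genes. Without WT3 limma called no member and 0.0385% of all genes, without Rescue3.34 no member and 1.32%, and without KO2.6 2 members and 7.6%. The median over members was -0.49 without WT3, -0.90 without Rescue3.34 and -0.50 without KO2.6. With line as a block 4 members were called, Pfkp, Pgam1, Pdk1 and Pdk3, with 12% of all genes.

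At cXENp3 itself, 14 members were lower and 2 higher in knockouts than in Zfp281-present lines, while 41.9% of all genes tested were called (19% lower and 22.9% higher). The share of members called is close to that of all genes; the median over members was -0.57 and over all genes 0.01. Glycolysis gave 8 of 16 lower (Gpi1, Pfkm, Pfkp, Aldoc, Gapdh, Pgam1, Eno1 and Pkm) and none higher, and Ldhb and Pdk1 were lower too. The TCA list gave 4 lower (Idh3a, Idh3g, Sdha and Fh1) and 2 higher (Ogdh and Suclg1) of 18. Without WT3, the library with the highest glycolytic sum, no member and 8.14% of all genes were called, and the median over members was -0.34. Leaving out Rescue3.34 left 7 members and 22.1% of all genes called, with a median of -0.80. The figures were 11, 29.4% and -0.37 on leaving out KO2.6, and 23, 47.9% and -0.81 on leaving out KO3.34. The XEN and ESC markers moved with this result, as given above, and their part in it was not tested. Feeder markers were highest in Rescue3.34 (1279.5 FPKM) and lowest in WT3 (68.2), with 302 in KO3.34 and 360.1 in KO2.6. The XEN lines, kept without feeders, also had 557 to 629 FPKM of this list. The part of feeder cells in the result was not tested.

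**Figure D5:**
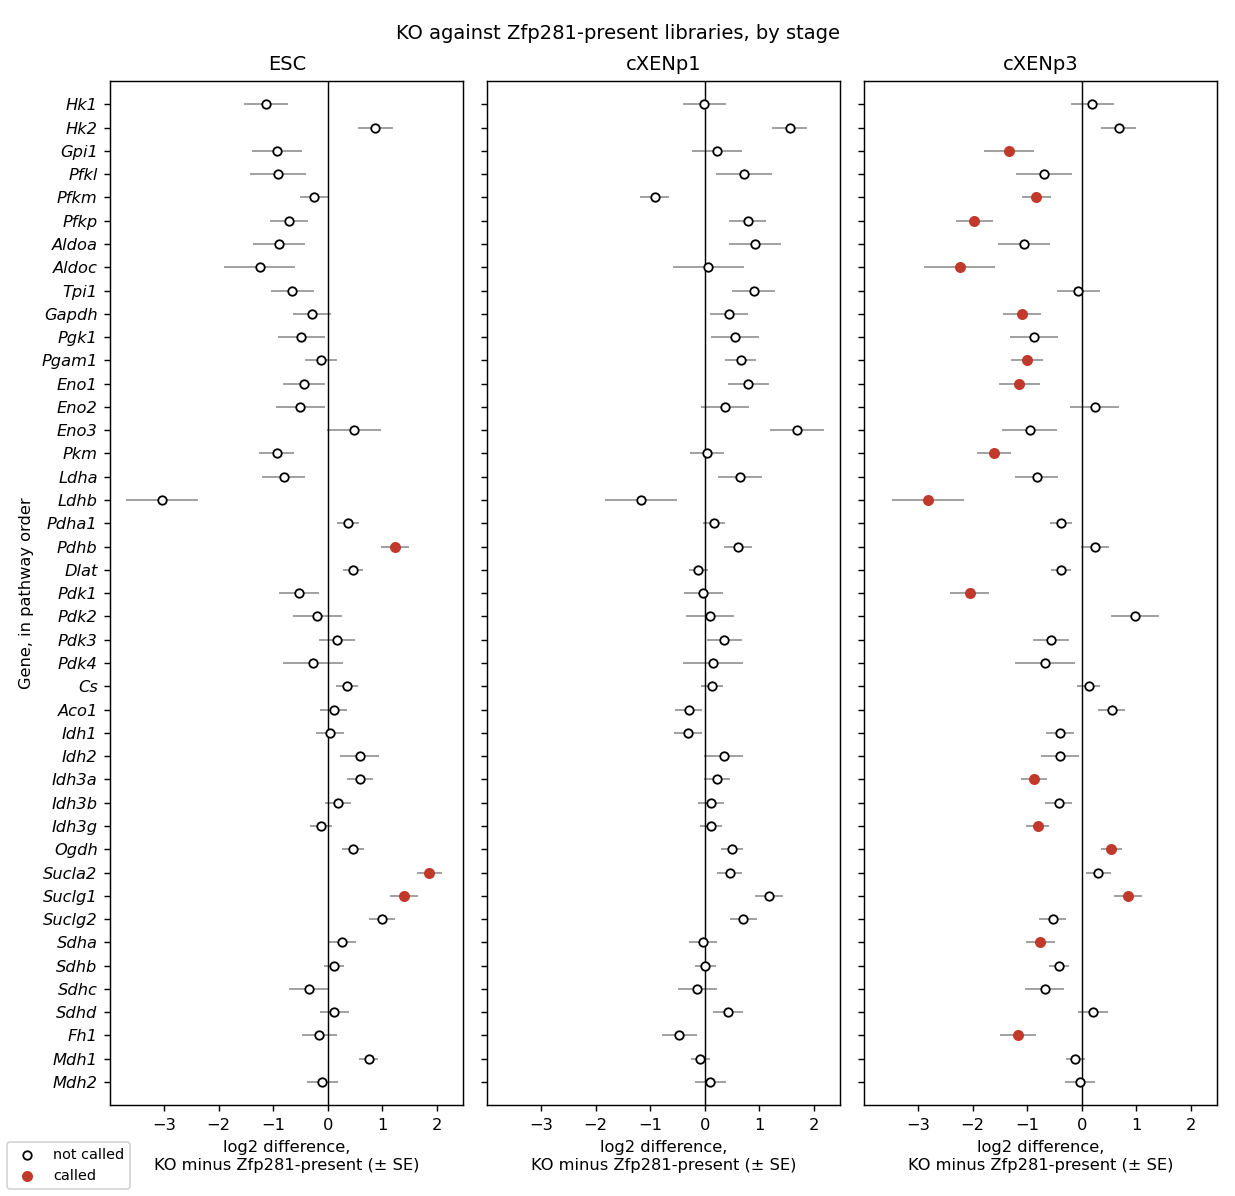
Difference between knockout and Zfp281-present lines for each member (rows, in pathway order), on the log2(FPKM + 1) scale with its SE (bars), in ESCs, at cXENp1 and at cXENp3; filled points are called. In ESCs 3 points are filled, all to the right, at cXENp1 none, and at cXENp3 14 to the left and 2 to the right.

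In ESCs the knockouts differed from Zfp281-present lines in 3 members, all higher: Sucla2, Suclg1 and Pdhb. All 3 encode mitochondrial enzymes. Of all genes 1.97% were called in this comparison, 1.05% higher. None of the 16 glycolytic genes was called; 14 had values below 0, with a median over the class of -0.57. That median was -0.17 without KO2.6 and -1.14 without KO3.34, and the median over all members went from -0.12 to 0.13 without KO2.6. With the prefix as a term no member was called, with 0.159% of all genes, and the medians were as without KO2.6, the only ESC library with prefix XH. Without WT3 or Rescue3.34 limma called no member and 1 gene in all. Without KO2.6 Sucla2 and 0.328% of all genes were called, and without KO3.34 11 members and 15.5%, 6 of the members lower (Hk1, Gpi1, Pfkl, Pfkp, Aldoc and Ldhb). The XEN markers were also higher in the knockout ESCs (8.14 and 50.5 FPKM against 2.38 and 2.19), and their part in these differences was not tested. At cXENp1 no member was called by limma, with 0.485% of all genes called and 1486 genes at an unadjusted p under 0.05. Leaving out KO3.34, 2 members (Hk2 and Suclg1) were called, with 4.97% of all genes, a share close to that of the members.

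The endpoint was read from the XEN lines against ESCs. The 4 ESC libraries, 2 of them knockouts, were fitted together without a term for Zfp281, so differences between them add to the spread. Here 12 members were lower and 2 higher, with 41.9% of 12372 genes called (19.7% lower and 22.2% higher), so the share of members called was under that of all genes. The median over members was -0.47 and over all genes -0.02. Pfkp, Eno1, Pdk1 and Idh1 were called lower in all 14 alternatives. Others called lower were Pfkm, Aldoc, Gapdh, Dlat, Pdk4, Idh3g, Sdhb and Fh1, and Tpi1 and Eno2 were the 2 called higher. Ldhb, at 49.5 to 1122 FPKM in ESCs and 52.7 to 63.8 in XEN lines, was not called. The count of called members was 7 without XEN5 and 7 without XENB1, where 18% and 19.4% of all genes were called. It was 9 without WT3 (33.7% of all genes), 9 without KO3.34 (37.2%) and 22 without KO2.6 (50.8%). With the prefix as a term 10 were lower and 4 higher, adding Pfkl and Pdk2 to the higher ones, and after rescaling each library to the same sum 9 were lower and 3 higher.

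Knockouts at cXENp3 were then set beside the XEN lines, which are not knockouts. No member was called by limma, while 4.12% of 13386 genes were and 2740 had an unadjusted p under 0.05. The nearest were Eno2, at -1.88 (SE 0.56, adjusted p 0.0927), and Suclg2, at -0.80 (SE 0.24, adjusted p 0.101), and the median over members was -0.12, against 0.04 over all genes. Without KO3.34 Suclg2 and Fh1 were called lower, and without XENB1 Eno2 was. A p over the threshold does not show that the levels were equal.

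Other genes of these pathways came from lists of the transporters, further enzymes and regulators. Beside the counts in these lists, 28.5% of all genes were called from ESC to cXENp1. For XEN lines against ESCs and for knockouts at cXENp3 that share was 41.9%. Among 6 glucose and lactate transporter genes tested, none was called from ESC to cXENp1; Bsg (the partner of the lactate transporters), Slc16a1 (a lactate transporter) and Slc2a3 (a glucose transporter) were higher in XEN lines than in ESCs, by 1.14, 2.27 and 0.92. At cXENp3 the glucose transporter Slc2a1 was lower in knockouts at -1.85 (SE 0.38, adjusted p 0.00429): it had 158, 153, 81.9 and 108 FPKM in ESCs, 80.0, 159.8, 127 and 209.8 at cXENp1, 567, 313, 120.2 and 112 at cXENp3, and 86.9 and 119 in XENB1 and XEN5. WT3 and Rescue3.34 were the highest libraries at that stage, and the knockouts had 120.2 and 112 FPKM against 86.9 and 119 in the XEN lines. Its knockout difference changed between passages by -2.38 (SE 0.54, adjusted p 0.0248). Slc2a4 (-1.12) was lower and Bsg (1.43) higher in knockouts at cXENp3.

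Of 10 further glycolytic enzymes and regulators tested, Pfkfb2, which makes the activator of phosphofructokinase, was higher in knockouts at cXENp3 by 1.63 (SE 0.29, adjusted p 0.00235), and G6pc3 by 1.38 (SE 0.32, adjusted p 0.00824). The knockout difference in Pfkfb2 changed by 1.70 from cXENp1 to cXENp3. Ldhd was called lower from ESC to cXENp1 (-1.71), and in XEN lines G6pc3 (0.83) and Bpgm (0.86) were higher and Ldhd lower (-1.81) than in ESCs.

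Of 14 further TCA and anaplerotic genes tested, 7 were called lower and none higher from ESC to cXENp1, among them Pck2 (-2.35), Got1 (-1.89), Ogdhl (-1.78), Sdhaf1 (-0.84), Glud1 (-0.72) and the pyruvate carboxylase Pcx (-0.67). In XEN lines Me2 (1.19) was higher than in ESCs and Acly (-1.24), Pck2 (-1.91) and Got1 (-2.00) were lower. Me1, the cytosolic malic enzyme, was higher in XEN lines than in ESCs by 2.74 (SE 0.25, adjusted p 0.000172) and in knockouts at cXENp3 by 2.54 (SE 0.34, adjusted p 0.000633), where Acly (-0.74) and Got1 (-1.10) were lower. The knockout difference changed from cXENp1 to cXENp3 by 1.71 for Me1 and by -1.59 for Got1. Of 8 pentose phosphate genes, Taldo1 was called lower at cXENp1 (-0.76), in XEN lines (-0.78) and in knockouts at cXENp3 (-0.61). Rpia was higher in XEN lines (2.12) and in knockouts at cXENp3 (1.48), H6pd was higher in knockouts at cXENp3 (1.07), Tkt was lower in XEN lines (-0.81), and Rpe was higher in knockout ESCs (1.45).

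Of 7 further genes of the pyruvate dehydrogenase complex and its regulation, the phosphatase gene Pdp2 was lower at cXENp1 (-1.10) and in XEN lines (-1.74) than in ESCs. In knockouts at cXENp3 the pyruvate carrier gene Mpc2 was higher (0.97) and Dld lower (-0.53). Among 15 tested regulators of these genes, 4 were called higher and 4 lower from ESC to cXENp1. Myc rose by 2.35 (SE 0.62, adjusted p 0.022) and Mycn fell by 3.02 (SE 0.71, adjusted p 0.0137). KO2.6, whose ESC and cXENp1 libraries share a prefix, went the other way in both. There Myc went from 24.2 to 20.5 FPKM and Mycn from 36.3 to 43.7. The other called regulators were Lin28b (1.69), Egln1 (1.06) and Vhl (0.61), which rose, and Esrrb (-6.77), Egln3 (-1.35) and Ppargc1b (-1.03), which fell. Epas1, which encodes a hypoxia-inducible factor, was higher in XEN lines by 5.91 (SE 0.44, adjusted p 6.37e-05) and in knockouts at cXENp3 by 4.23 (SE 0.72, adjusted p 0.00177). In XEN lines Egln1 (1.5003) was higher too, and Esrrb (-7.81) and Lin28b (-1.66) were lower. Esrrb, Lin28a, Lin28b and Tfam were lower in knockouts at cXENp3, with differences of -4.70, -3.15, -2.12 and -0.90, and the difference in Esrrb changed by -5.19 from cXENp1. Against the XEN lines, knockouts at cXENp3 had lower Lin28a (-3.36) and Slc16a1 (-1.91).

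Of 9 hypoxia response genes tested, 1 was called higher (Adm, 1.36) and 3 lower (Vegfa, -1.97, Ndrg1, -1.67, and Ankrd37, -1.36) from ESC to cXENp1, with a median over the list of -0.59. In KO2.6, whose ESC and cXENp1 libraries share a prefix, Vegfa went from 17.6 to 14.1 FPKM, Ndrg1 from 3.01 to 3.17 and Ankrd37 from 3.57 to 3.52. Adm went from 0.0403 to 4.57 FPKM there. Of the 9 genes, 4 were higher in XEN lines than in ESCs and none lower, with a median of 1.05: P4ha2 (5.24), P4ha1 (4.80), Adm (1.29) and Vegfa (0.82). Over all genes 41.9% were called in that comparison, 22.2% higher, with a median of -0.02. P4ha1 and P4ha2, prolyl hydroxylases of collagen, were also higher in knockouts at cXENp3 (3.33 and 5.19) and Ddit4 was lower (-0.99), and the other 6 were not called. The knockout difference in P4ha2 changed by 4.31 from cXENp1 to cXENp3.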

How the data were processed

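Polyadenylated RNA of 14 libraries was sequenced with paired reads of 150 bases, per the labels' protocols. The submitters' processing notes list STAR 2.5.3, Cufflinks 2.1.1 and build mm9, without saying which tool did which step. The authors deposited 1 table, taken as FPKM because Cufflinks is listed, with no counts or depth. Coordinates of genes are those of the table, from 1; promoter coordinates are RefSeq's on GRCm38.p6.

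The members and the gene lists were chosen with earlier results of these data known. Values were analysed as log2(FPKM + 1), keeping genes with at least 1 FPKM in 2 or more fitted libraries. Models were fitted with limma 3.58.1 in R 4.3.3 (lmFit, eBayes with trend) in 7 comparisons, each adjusted by Benjamini-Hochberg over all genes tested; the fits were tested on simulated data. Members are all named. XEN against ESC used those 6 libraries, and cXENp1 against ESC used the 12 libraries of the 3 stages, blocked by line (a line has 1 library at a stage, which pairs them), knockout comparisons 6 groups of 2 with a shared spread, and knockout against XEN 7 groups. Every library differed from every other. Values in all libraries are given for members called in a comparison and their isoenzyme partners, and other genes come from the lists, with values for called ones (some are not reported here).

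Alternatives were a pseudocount of 0.1, other filters (values above 0 in any library, or means of 5 FPKM or more), quantile normalization, rescaling to equal sums, no trend in eBayes, a minimum log2 change of 1 in size, the description prefix as a term, other blocks and leaving out each line. Where that leaves 1 library in a group, it is assumed to vary like the others.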

Additional observations from a re-analysis of the deposited data

Results flagged for a closer look

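In groups of 4 libraries, the highest or lowest was checked for a gap to the others that is large against the range (Dixon's ratio above its 95% critical value). Of 129 groups of a member and a stage, 4 passed, where chance alone gives about 6.45. All 4 were KO2.6: Gpi1 (127 FPKM) and Aldoc (5.62 FPKM) were low in ESCs, and Pdha1 (81.0 FPKM) and Sdhd (131 FPKM) were high at cXENp1. KO2.6 is the only ESC library with the prefix XH.

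The difference between knockout and Zfp281-present lines changed from cXENp1 to cXENp3 in 7 members by the interaction term of limma. The change was -2.75 for Pfkp, -1.66 for Pgam1, -1.94 for Eno1, -2.65 for Eno3, -1.66 for Pkm, -2.03 for Pdk1 and -1.24 for Suclg2, on the log2 scale. With line as a block, Eno1, Eno3, Pkm and Suclg2 were not called. Leaving out WT3 or Rescue3.34 left none of the 7 called, and 0.0385% and 1.32% of all genes, against 11.4%.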

How the results depend on the processing

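Leaving out 1 line gave between 7 and 22 called members for XEN against ESC (14 with all lines), 7 to 27 for cXENp1 against ESC (25), 0 to 11 for knockouts in ESCs (3), 0 to 2 at cXENp1 (0), 0 to 23 at cXENp3 (16), 0 to 9 for the interaction (7) and 0 to 2 for knockouts at cXENp3 against XEN lines (0). For cXENp1 against ESC, 14 were called after quantile normalization, 15 after rescaling each library to the same sum, 16 with a minimum log2 change of 1, 2 with the prefix as a term, and 22 with no line block. For knockouts in ESCs, 5 were called after rescaling and 0 with the prefix as a term. For knockouts at cXENp3, 10 were called with a minimum log2 change of 1. For the interaction, 1 was called when genes with any value above 0 were tested and 4 with line as a replicate block. Among the called members, each under each alternative, 561 values kept their side of the threshold, 253 fell short of it and 0 changed sign. The cause of these shifts was not tested. Without counts, what sequencing depth adds to the error of low members such as Pdk4, Eno2 and Aldoc is unknown.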
